A study of Danio rerio with 10 samples.

Results

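Brains of ppp2r2c m1/m1 zebrafish given methylphenidate (MPH) were compared with brains of the same mutant line given vehicle, using RNA-seq. The comparison held 5 of the 10 libraries of the study, chosen by their labels: 3 libraries of MPH-treated fish and 2 of vehicle-treated fish. MPH, the active substance of Ritalin, was fed at 1.08 mg/kg for 3 days in food soaked in drug solution. All 5 libraries came from 6-month-old fish of the Tübingen strain, with 2 pooled brains per library. Every fish in both groups was homozygous for one frameshift allele in exon 9 of ppp2r2c, so the groups differed in drug and shared the mutation. One mutant line was used, and no MPH-treated wild-type library was analysed here. The study's reagent list describes its MPH stock as a solution of ritalinic acid, the main metabolite of MPH, so which of the 2 compounds reached the fish cannot be told from the sources used here. Valproate-treated mutant brains (300 mg/kg, 3 days, 3 libraries) served for a direct comparison of the drugs.

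MPH is a stimulant that blocks the dopamine and noradrenaline transporters of neurons. The study used it as an activator of protein phosphatase 2A (PP2A), an enzyme built from a scaffold, a catalytic and a regulatory subunit, of which ppp2r2c encodes a brain form of the regulatory subunit. Cortisol, the main glucocorticoid of fish, binds a receptor held by heat shock chaperones and switches on genes such as fkbp5 and klf9. The circadian clock is a loop in which CLOCK and BMAL proteins activate the per, cry and nr1d genes, whose products in turn repress it. The adult brain makes its own cholesterol from acetyl-CoA through mevalonate, squalene and lanosterol, under the control of the transcription factor SREBP2.

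The guide RNA that made the allele is printed because all libraries compared carry the mutation it induced, and its capitals mark the 12 bases at the 3′ end, the seed beside the PAM.
sgRNA to ppp2r2c: gggcccagTGGAGACATACC
The transcript of the targeted gene, PPP2R2C (ENSDARG00000056797), had 49.1, 70.6 and 39.3 CPM with MPH, against 46.3 and 46.7 CPM with vehicle. CPM are counts scaled to a common library size with edgeR's TMM factors over all 10 libraries. The ranges of the groups overlapped (log2 fold change 0.19, SE 0.25, adjusted p = 0.819, edgeR's quasi-likelihood test), and the sign turned without MPH replicate 2. A count per gene does not read the edited allele, so these values do not check the genotype.

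Counts on genes summed to 23329058 to 25851076 in the MPH libraries and to 21031600 to 23057983 in the vehicle libraries. The series text calls the replicates biological without saying how fish were assigned to them, and p-values measure the spread between these samples alone. The vehicle libraries were the closest pair, with a median absolute log2 difference per gene of 0.187, against 0.279 to 0.360 between MPH libraries and 0.284 to 0.371 between libraries of different groups. MPH replicate 1 stood apart in its ribosomal protein transcripts, which took 5.71% of its counts, against 3.20% to 3.87% in the other 4 libraries. MPH replicate 3 was closer to vehicle replicates 1 and 2 (0.292 and 0.284) than to MPH replicates 1 and 2 (0.360 and 0.335). It stood apart on the second principal component, which held 25.5% of the variance. On the first component (45.6%) it lay at -13.9, nearer to the vehicle libraries (-30.3 and -33.0) than to MPH replicate 2 (30.7).

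The question was which transcripts of the mutant brain differed after MPH. Among 19907 genes tested, 31 rose (0.156%) and 12 fell (0.0603%) with MPH at an adjusted p under 0.05, in all 43 (0.216%). The genes that rose were led by KLF9 and FKBP5, which cortisol induces, and held the clock repressors NR1D1 and nr1d2a, 3 linker histones, 2 pyruvate dehydrogenase kinases and 3 genes of the FoxO and fasting-responsive list. Those that fell were led by SQLE of cholesterol synthesis and held the chaperone genes HSPA4, HSP90AA1 and dnaja and the topoisomerase gene top2a. In each of the 43 genes the 3 MPH libraries lay on one side of both vehicle libraries, a separation found in 15.7% of all genes tested in the higher direction and 15.9% in the lower. At an unadjusted p under 0.05 there were 1339 genes higher (6.73%) and 989 lower (4.97%) with MPH, and the median log2 fold change of all genes was 0.01.

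The number of calls depended on single libraries. Without MPH replicate 3, 731 genes passed the threshold, among them all 43. Leaving out MPH replicate 1 gave 17 and MPH replicate 2 gave 7, all of them among the 43. Without vehicle replicate 1, 12 genes passed, 9 of them among the 43, and without vehicle replicate 2, 1 gene outside the 43 passed. The direction of all 43 was the same in the 14 alternatives tried, apart from 1 gene that a stricter filter on counts left untested. In 24 of the 31 genes that rose, MPH replicate 3 was the MPH library nearest to vehicle.

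**Figure D1:**
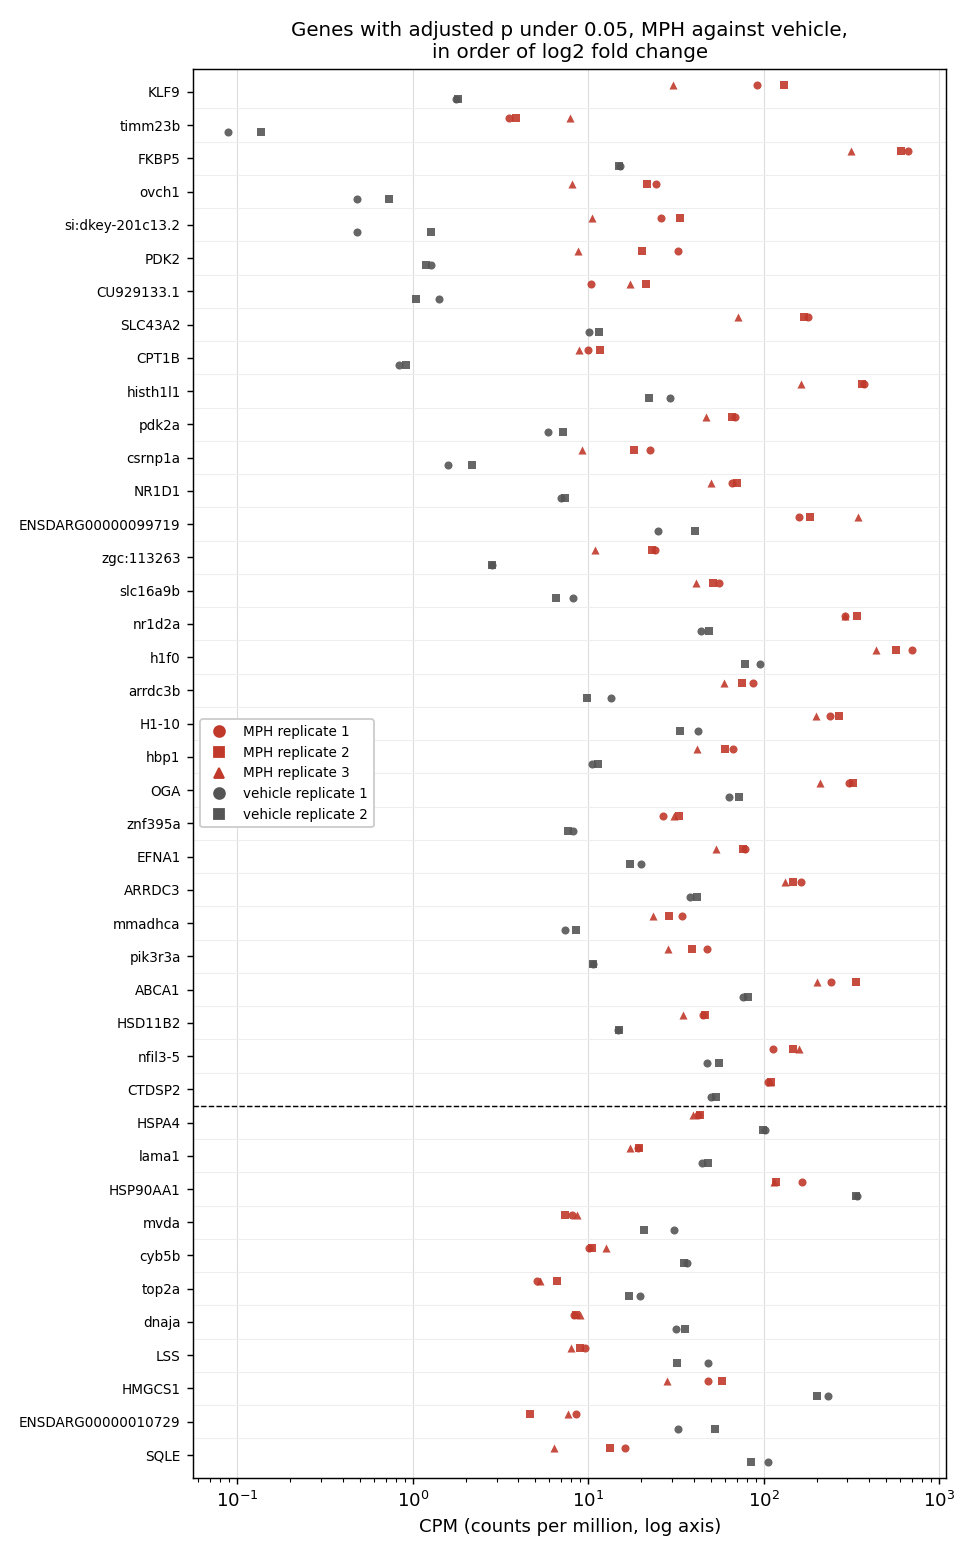
CPM (log axis) of 42 of the 43 genes with an adjusted p under 0.05, one row per gene in order of log2 fold change, with red symbols for the 3 MPH libraries and gray symbols for the 2 vehicle libraries. The 31 genes above the dashed line had all MPH values above both vehicle values and the 11 below it had them under both; the red triangles of MPH replicate 3 lie nearest to vehicle in 24 of the 31.

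KLF9 and FKBP5, both in the list of glucocorticoid-responsive genes, had, with timm23b, the 3 highest fitted fold changes among the 43 genes past the threshold. FKBP5, a co-chaperone that lowers the affinity of the glucocorticoid receptor for hormone, was at 663, 608 and 316 CPM with MPH, against 15.1 and 15.0 CPM with vehicle. FKBP5 (ENSDARG00000028396) was thus 35.1-fold higher (log2 fold change 5.13, SE 0.37, adjusted p = 0.00294, edgeR's quasi-likelihood test, as in all adjusted p-values below unless named). The vehicle libraries were nearly equal, and the lowest MPH library was still far above them. KLF9, a Krüppel-like transcription factor, stood at 91.7, 131 and 30.4 CPM with MPH, against 1.76 and 1.82 CPM with vehicle. KLF9 (ENSDARG00000068194) was 47.0-fold higher (log2 fold change 5.56, SE 0.65, adjusted p = 0.0168), and its MPH libraries were far apart. HSD11B2, the enzyme that inactivates cortisol to cortisone, had 45.2, 46.0 and 34.6 CPM with MPH, against 14.7 and 15.0 CPM with vehicle, a 2.82-fold rise (log2 fold change 1.49, SE 0.21, adjusted p = 0.0392).

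Over the list of genes known to respond to glucocorticoids, 2 of 31 tested rose and 0 fell, the median log2 fold change was 0.61 against 0.01 for all genes, and 16 (51.6%, against 6.73% of all genes) were higher at an unadjusted p under 0.05 and 0 lower. The median lay between 0.50 and 0.73 when each library was left out in turn. Members that rose numbered 12 without MPH replicate 3, against 439 of 19475 genes tested, and 1 without MPH replicate 1, against 14 of 19596. The log2 fold change was positive in 25 of the 31 and negative in 6, down to -1.73. The groups did not overlap in 16 with MPH higher and in 3 with MPH lower, against 15.7% and 15.9% of all genes. The 4 members described next, all higher with MPH, were chosen after their values were seen and not by rank. They did not overlap between groups and did not pass the threshold. nfkbiab, an inhibitor of NF-κB, was at 219.6, 138 and 119.6 CPM with MPH, against 52.9 and 46.9 CPM with vehicle (adjusted p = 0.0713). CEBPD, a transcription factor, stood at 70.4, 50.7 and 28.8 CPM with MPH, against 11.6 and 5.37 CPM with vehicle (adjusted p = 0.0844). ANGPTL4, an inhibitor of lipoprotein lipase, had 30.7, 23.9 and 56.3 CPM with MPH, against 8.04 and 8.60 CPM with vehicle (adjusted p = 0.0844). tsc22d3, whose mammalian counterpart is the glucocorticoid-induced leucine zipper, was at 169, 134 and 141 CPM with MPH, against 108 and 89.9 CPM with vehicle (adjusted p = 0.283). The medians of the list, taken for each MPH library against the vehicle mean, were 0.88, 0.59 and 0.24 on the log2 scale for replicates 1, 2 and 3, lowest in replicate 3.

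The receptor itself, its cofactors and the cortisol enzymes formed a separate list. NR3C1, the glucocorticoid receptor, stood at 83.3, 96.4 and 101 CPM with MPH, against 89.8 and 102 CPM with vehicle, with overlapping groups (log2 fold change -0.03, SE 0.17, adjusted p = 0.966). FKBP4, the co-chaperone that replaces FKBP5 in the receptor complex when hormone binds, had 125, 127 and 141 CPM with MPH, against 234 and 210.1 CPM with vehicle and did not pass the threshold (log2 fold change -0.76, SE 0.16, adjusted p = 0.141). hsd20b2, which reduces cortisone further in zebrafish and was chosen after its values were seen, was at 21.1, 12.9 and 6.84 CPM with MPH, against 3.69 and 2.55 CPM with vehicle (log2 fold change 2.12, SE 0.48, adjusted p = 0.167). In this list of receptors, chaperones and cortisol enzymes 1 of 14 genes rose, 0 fell and the median was 0.04. At an unadjusted p under 0.05, 2 (14.3%, against 6.73% of all genes) were higher and 2 (14.3%, against 4.97%) lower. These counts leave out the chaperone gene HSP90AA1, which was planned for the list but not matched by its symbol. HSP90AA1 fell (log2 fold change -1.35, SE 0.20, adjusted p = 0.0489) and is described below.

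Clock repressors were the next group. NR1D1 and nr1d2a encode REV-ERB nuclear receptors, which bind heme and repress the BMAL genes. NR1D1 stood at 66.0, 70.4 and 50.1 CPM with MPH, against 6.99 and 7.42 CPM with vehicle, an 8.62-fold rise (log2 fold change 3.11, SE 0.23, adjusted p = 0.00294), and NR1D1 was high in all 3 MPH libraries, replicate 3 included. nr1d2a had 289, 339 and 291 CPM with MPH, against 43.8 and 48.9 CPM with vehicle, a 6.61-fold rise (log2 fold change 2.73, SE 0.19, adjusted p = 0.00294), and its MPH values lay within a narrow range. nfil3-5, one of the zebrafish copies of NFIL3, a repressor that competes with the PAR bZIP activators for their sites, was at 112, 146 and 159 CPM with MPH, against 47.4 and 55.8 CPM with vehicle (log2 fold change 1.43, SE 0.21, adjusted p = 0.0489). Unlike most genes that rose, nfil3-5 was highest in MPH replicate 3.

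Of 19 clock repressors tested, 2 rose and 0 fell, with a median log2 fold change of 1.13 and 8 (42.1%, against 6.73% of all genes) higher at an unadjusted p under 0.05. Of 9 PAR bZIP and nfil3 genes 1 rose and 0 fell, with a median of 1.19 and 7 (77.8%, against the same 6.73%) higher at an unadjusted p under 0.05. In the period genes the MPH libraries parted. PER3, chosen after its values were seen, stood at 141, 179 and 12.3 CPM with MPH, against 56.3 and 68.5 CPM with vehicle, above vehicle in replicates 1 and 2 and below it in replicate 3. The PER1 copy ENSDARG00000012499, chosen in the same way, had 198, 279.5 and 40.5 CPM with MPH, against 80.5 and 70.33 CPM with vehicle and showed the same split. The median of the clock repressors against the vehicle mean was 1.17, 1.51 and -0.27 on the log2 scale in MPH replicates 1, 2 and 3. Without MPH replicate 3 the calls in this list numbered 12 higher and 1 lower, against 2 and 0 with it. Over all genes the calls numbered 439 higher and 292 lower without that library, against 31 and 12 with it. The hour at which the fish of each library were killed is not given in the sources used here.

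Clock activators showed no call among 11 genes tested (median 0.11), and 0 calls in DESeq2 or limma-voom. At an unadjusted p under 0.05, 1 (9.09%, against 6.73% of all genes) was higher and 0 lower. rorcb, a ROR nuclear receptor of the list, was at 32.3, 43.8 and 62.2 CPM with MPH, against 24.1 and 31.4 CPM with vehicle (log2 fold change 0.73, SE 0.29, adjusted p = 0.380). rorab, another ROR gene, stood at 85.7, 112 and 85.8 CPM with MPH, against 104 and 128 CPM with vehicle (log2 fold change -0.30, SE 0.19, adjusted p = 0.605). The PAR bZIP factor dbpb, an activator of clock output genes, had 81.8, 90.4 and 45.8 CPM with MPH, against 27.0 and 25.6 CPM with vehicle, without overlap and short of the threshold (log2 fold change 1.46, SE 0.29, adjusted p = 0.124).

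**Figure D2:**
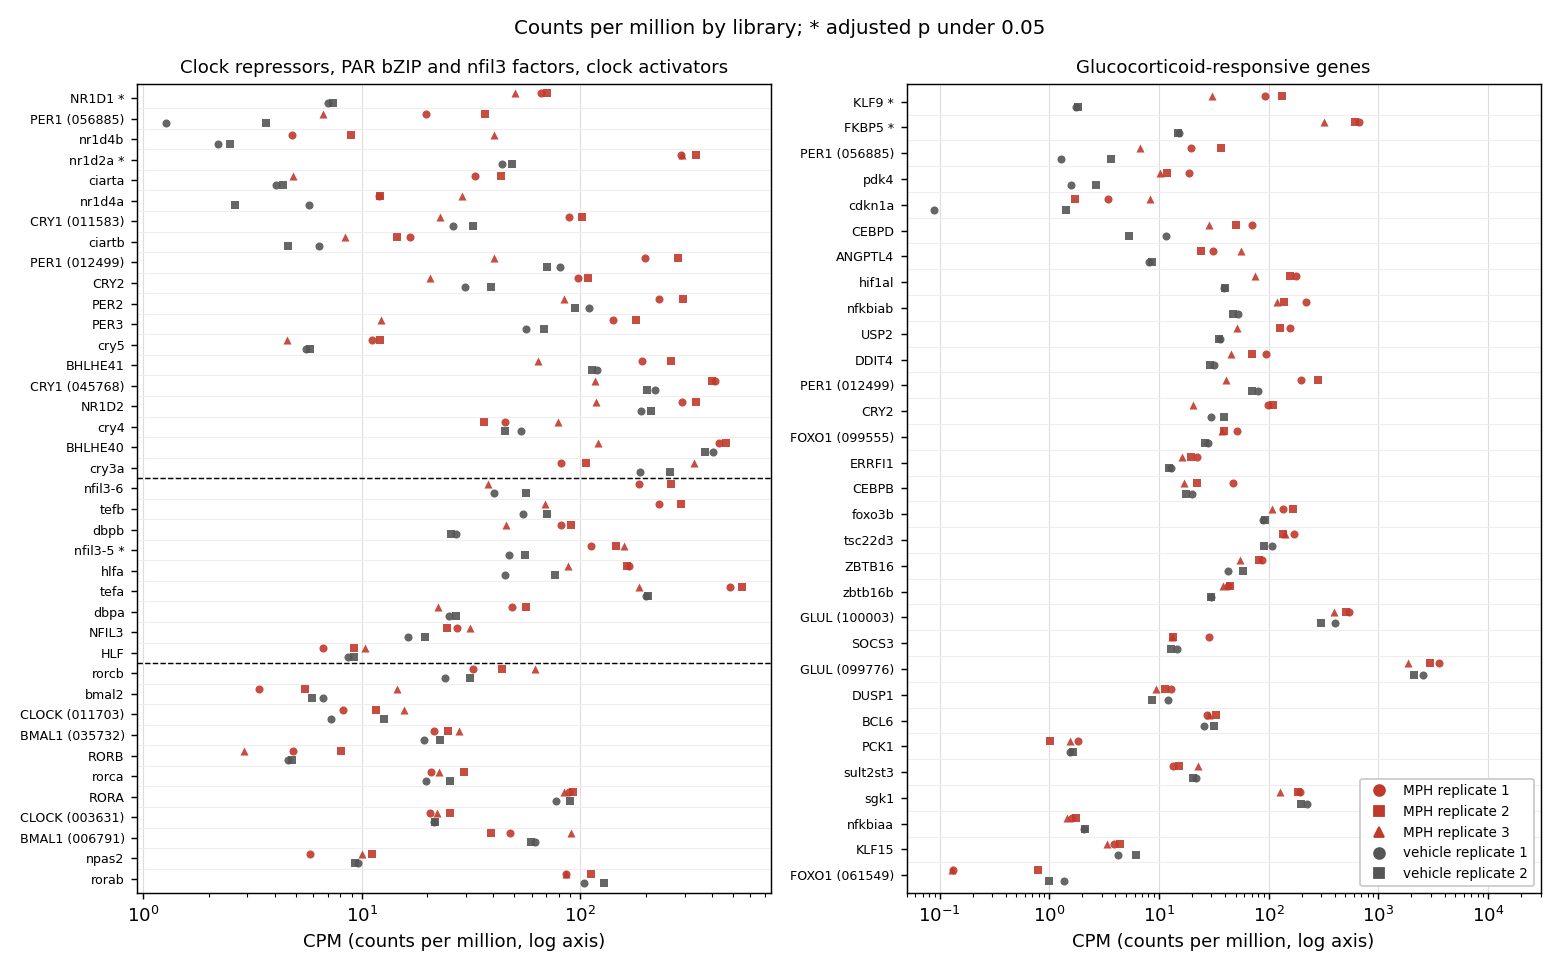
CPM (log axis) of all tested genes of 4 lists, with MPH libraries in red and vehicle libraries in gray; in the left panel dashed lines part the 19 clock repressors, 9 PAR bZIP and nfil3 genes and 11 clock activators, and the right panel shows the 31 glucocorticoid-responsive genes. Asterisks mark adjusted p under 0.05; for PER3 the red triangle of MPH replicate 3 (12.3 CPM) lies left of both vehicle libraries (56.3 and 68.5 CPM) and the other MPH libraries lie right of them.

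Cholesterol synthesis held 5 of the 12 genes that fell, more than any other of the 29 lists. SQLE, squalene epoxidase, was at 16.1, 13.3 and 6.42 CPM with MPH, against 105 and 84.4 CPM with vehicle. SQLE (ENSDARG00000079946) was 7.96-fold lower (log2 fold change -2.99, SE 0.33, adjusted p = 0.0149), the lowest log2 fold change among the 12 genes that fell. Another 3 enzymes of the path fell. HMGCS1, which makes HMG-CoA early in the path, stood at 48.3, 57.6 and 28.1 CPM with MPH, against 234 and 202 CPM with vehicle, 4.88-fold lower (log2 fold change -2.29, SE 0.28, adjusted p = 0.0170). LSS, lanosterol synthase, had 9.55, 8.998 and 7.998 CPM with MPH, against 47.9 and 31.8 CPM with vehicle, 4.51-fold lower (log2 fold change -2.17, SE 0.23, adjusted p = 0.0129). mvda, mevalonate diphosphate decarboxylase, was at 8.05, 7.32 and 8.68 CPM with MPH, against 31.0 and 20.7 CPM with vehicle, 3.22-fold lower (log2 fold change -1.69, SE 0.25, adjusted p = 0.0489). In HMGCS1 and SQLE, MPH replicate 3 was the farthest from vehicle.

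Of 30 genes in the list of cholesterol synthesis and uptake, 5 fell and 0 rose. The log2 fold change was negative in 29 and positive in 1, against 9791 and 10116 of all 19907 genes, the list median was -0.67, and 17 (56.7%, against 4.97% of all genes) were lower at an unadjusted p under 0.05. Leaving out each library in turn kept the median between -0.80 and -0.62. Calls moved with those of all genes: 10 members fell without MPH replicate 3, against 292 of 19475 genes tested. Members that fell numbered 2 without MPH replicate 1, against 3 of 19596 genes, and 1 without MPH replicate 2, against 1 of 19587. The MPH and vehicle values did not overlap, with MPH lower, in 21 of the 30, against 15.9% of all genes. The next 2 genes were chosen after their values were seen. srebf2, which encodes SREBP2, stood at 209, 203 and 141 CPM with MPH, against 304 and 277 CPM with vehicle (log2 fold change -0.66, SE 0.20, adjusted p = 0.290). insig1, an inhibitor of SREBP processing, had 84.2, 104 and 85.0 CPM with MPH, against 132 and 134 CPM with vehicle (log2 fold change -0.55, SE 0.17, adjusted p = 0.283). The transport gene STARD4, chosen in the same way, had a log2 fold change of 0.00, with overlapping groups.

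ABCA1, the transporter that exports cholesterol from cells, rose. It was in no list and was chosen after its values were seen, at 242, 335 and 200.5 CPM with MPH, against 76.7 and 81.1 CPM with vehicle (log2 fold change 1.72, SE 0.24, adjusted p = 0.0431).

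**Figure D3:**
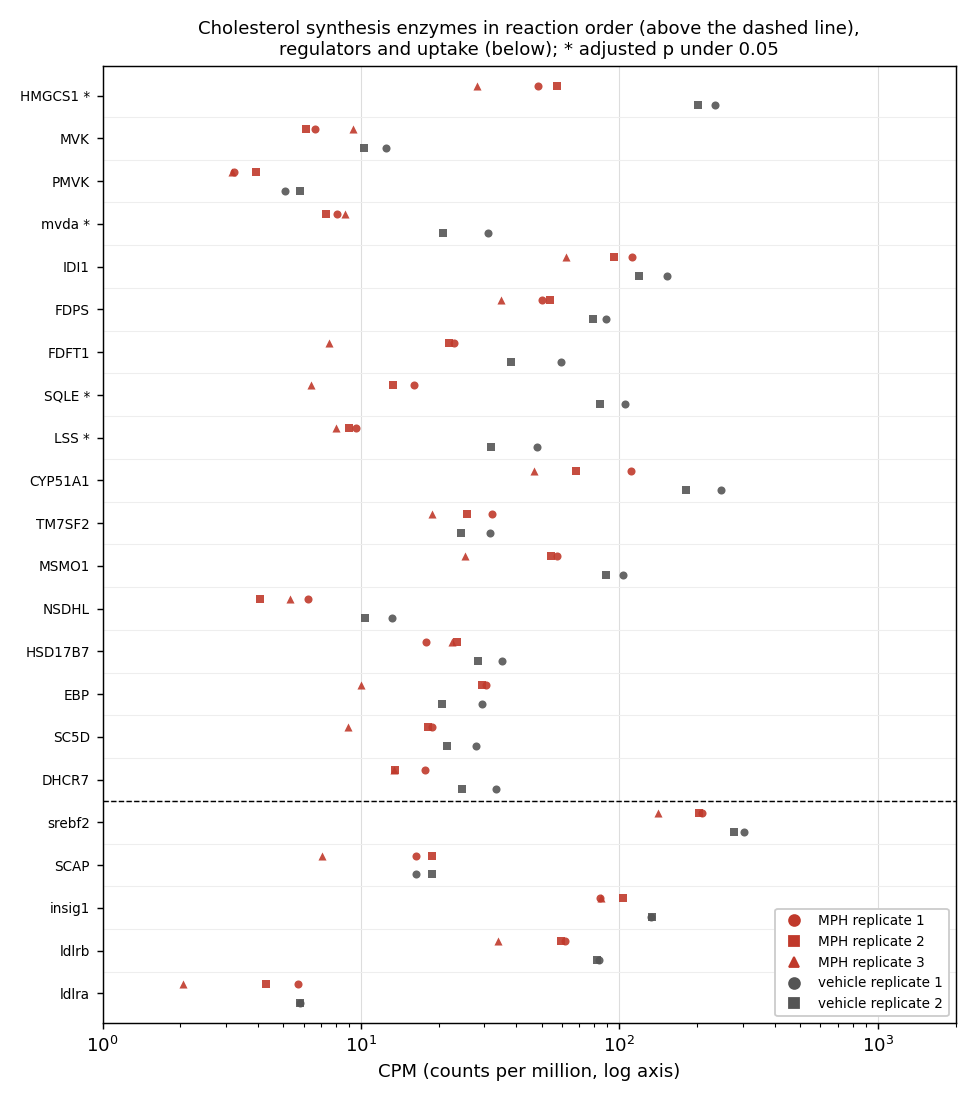
CPM (log axis) of 17 cholesterol synthesis enzymes in the order of their reactions (above the dashed line) and of 5 regulators and uptake genes (below), with MPH libraries in red, vehicle libraries in gray and asterisks for adjusted p under 0.05. The 4 marked enzymes are HMGCS1, mvda, SQLE and LSS, and their red symbols all lie left of the gray ones; SQLE spans 6.42 to 16.1 CPM with MPH and 84.4 to 105 CPM with vehicle.

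HSPA4, of the endoplasmic reticulum stress and heat shock list, fell, as did HSP90AA1 and dnaja, which were matched to no list. The zebrafish copies of hsp90aa1 were planned for the list of glucocorticoid receptors, chaperones and cortisol enzymes. HSP90AA1 was missed there because its symbol did not match, so counts over that list leave it out. HSPA4, a nucleotide exchange factor of the Hsp110 family, was at 42.5, 43.6 and 39.8 CPM with MPH, against 102 and 99.5 CPM with vehicle for ENSDARG00000004754, 2.41-fold lower (log2 fold change -1.27, SE 0.15, adjusted p = 0.0168). HSP90AA1, the stress-inducible cytosolic HSP90, stood at 166, 117 and 115 CPM with MPH, against 339.9 and 334 CPM with vehicle (log2 fold change -1.35, SE 0.20, adjusted p = 0.0489). dnaja, a gene of the DnaJ co-chaperone family, had 8.32, 8.56 and 9.02 CPM with MPH, against 31.4 and 35.4 CPM with vehicle, 3.87-fold lower (log2 fold change -1.95, SE 0.20, adjusted p = 0.0102). All 3 were lower in each MPH library than in either vehicle library, and HSPA4 and dnaja varied little within groups.

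The list of endoplasmic reticulum stress and heat shock genes held 1 of 30 that fell and 0 that rose, with a positive log2 fold change in 7, a median of -0.58 and 15 (50.0%, against 4.97% of all genes) lower at an unadjusted p under 0.05. hsp70l, an inducible Hsp70, was at 0.663, 1.63 and 0.941 CPM with MPH, against 9.67 and 7.05 CPM with vehicle, a difference that did not pass the threshold (log2 fold change -2.95, SE 0.45, adjusted p = 0.0555). The 2 copies of SERPINH1, the collagen chaperone HSP47, were chosen after their values were seen. The copy ENSDARG00000019949 stood at 1.11, 0.618 and 3.59 CPM with MPH, against 20.4 and 18.5 CPM with vehicle (adjusted p = 0.0844). The copy ENSDARG00000075954 had 1.55, 1.90 and 3.08 CPM with MPH, against 7.38 and 9.14 CPM with vehicle (adjusted p = 0.127). Neither overlapped between groups. edem1, which helps to clear misfolded proteins from the endoplasmic reticulum and was chosen in the same way, lay on the other side of vehicle at 15.7, 21.3 and 17.7 CPM with MPH, against 7.34 and 8.42 CPM with vehicle (adjusted p = 0.135).

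All 3 linker histone genes tested rose. Linker histones bind the DNA between nucleosomes, and H1.0 is known as the form of cells that have stopped dividing. h1f0, which encodes it, was at 698, 565 and 435 CPM with MPH, against 95.1 and 78.1 CPM with vehicle, a 6.52-fold rise (log2 fold change 2.71, SE 0.25, adjusted p = 0.00632). H1-10 stood at 239, 269 and 199 CPM with MPH, against 42.0 and 33.2 CPM with vehicle, a 6.26-fold rise (log2 fold change 2.65, SE 0.22, adjusted p = 0.00362). histh1l1 had 373, 363 and 163 CPM with MPH, against 29.4 and 22.3 CPM with vehicle, an 11.6-fold rise (log2 fold change 3.53, SE 0.39, adjusted p = 0.0149). The sum over the 3 was 1309, 1198 and 797 CPM with MPH, against 166 and 134 CPM with vehicle. The fourth gene of the list, h1m, a maternal form, had 0 counts in all 5 libraries, which allows up to 3 counts in each. hbp1, a repressor of cell cycle genes that was listed with p53 and growth arrest genes, was at 66.7, 59.8 and 41.7 CPM with MPH, against 10.5 and 11.4 CPM with vehicle, a 5.10-fold rise (log2 fold change 2.35, SE 0.25, adjusted p = 0.0118).

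Among genes of dividing cells, top2a, topoisomerase II alpha, was the only one that fell. It stood at 5.09, 6.62 and 5.30 CPM with MPH, against 19.7 and 17.1 CPM with vehicle, 3.24-fold lower (log2 fold change -1.70, SE 0.25, adjusted p = 0.0491). CHAF1B, which loads histones behind the replication fork, had 0.929, 0.662 and 0.727 CPM with MPH, against 5.19 and 4.41 CPM with vehicle and did not pass (log2 fold change -2.63, SE 0.43, adjusted p = 0.0768). In the list of replication fork and nucleotide supply genes 1 of 31 fell, 0 rose and the median was -0.21. At an unadjusted p under 0.05, 8 (25.8%, against 4.97% of all genes) were lower and 0 higher. None of 42 mitosis genes passed the threshold in edgeR (median -0.86). At an unadjusted p under 0.05, 1 was higher and 15 (35.7%, against 4.97% of all genes) were lower. DESeq2's Wald test, its likelihood ratio test and limma-voom called 7, 7 and 2 of them, against 540, 503 and 430 of all 19907 genes. Later counts of calls in these tests compare with the same totals. mki67, the marker Ki-67, was at 4.42, 4.28 and 4.88 CPM with MPH, against 13.9 and 10.2 CPM with vehicle (adjusted p = 0.124). SMC2, a condensin subunit, stood at 2.30, 2.87 and 2.82 CPM with MPH, against 7.999 and 7.69 CPM with vehicle (adjusted p = 0.127). Both were lower in all MPH libraries, at few counts.

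None of 23 origin licensing and MCM genes passed the threshold (median -0.26). At an unadjusted p under 0.05, 0 were higher and 4 (17.4%, against 4.97% of all genes) lower. DESeq2's Wald test, its likelihood ratio test and limma-voom called 3, 3 and 3. mcm6 had 7.08, 7.23 and 6.33 CPM with MPH, against 21.9 and 15.6 CPM with vehicle (log2 fold change -1.45, SE 0.25, adjusted p = 0.0844). mcm2 was at 13.5, 7.63 and 6.59 CPM with MPH, against 35.7 and 25.8 CPM with vehicle (log2 fold change -1.74, SE 0.32, adjusted p = 0.110). Both encode parts of the helicase that opens DNA at replication origins. The p53, growth arrest and checkpoint list held 1 gene of 34 that rose, hbp1, and 0 that fell, with a median of 0.25. At an unadjusted p under 0.05, 8 (23.5%, against 6.73% of all genes) were higher and 0 lower. bbc3, which encodes the p53 target PUMA, stood at 12.8, 11.4 and 13.1 CPM with MPH, against 2.42 and 4.59 CPM with vehicle (log2 fold change 1.83, SE 0.34, adjusted p = 0.112). Among 22 genes of the senescence-associated secretory phenotype, proteins that senescent cells release, none passed the threshold (median 0.19). At an unadjusted p under 0.05, 5 (22.7%, against 6.73% of all genes) were higher and 0 lower. DESeq2's Wald test, its likelihood ratio test and limma-voom called 3, 2 and 1. mmp13a, a collagenase of that list, had 38.3, 28.4 and 3.98 CPM with MPH, against 1.85 and 1.05 CPM with vehicle, far apart within the MPH group (log2 fold change 4.01, SE 0.89, adjusted p = 0.160), and TIMP2, an inhibitor of such proteases, was at 240.2, 276 and 234 CPM with MPH, against 134 and 139.8 CPM with vehicle for ENSDARG00000061226 (log2 fold change 0.87, SE 0.17, adjusted p = 0.124).

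In the list of pyruvate dehydrogenase and its kinases 2 of 15 genes rose, both kinases, and 0 fell, with a median of 0.04. The pyruvate dehydrogenase kinases switch off the entry of pyruvate into the citric acid cycle. pdk2a stood at 68.6, 66.2 and 46.7 CPM with MPH, against 5.93 and 7.14 CPM with vehicle, a 9.23-fold rise (log2 fold change 3.21, SE 0.25, adjusted p = 0.00315). The gene that the table names PDK2, ENSDARG00000059054, had 32.6, 20.3 and 8.72 CPM with MPH, against 1.27 and 1.18 CPM with vehicle, a 16.6-fold rise (log2 fold change 4.05, SE 0.57, adjusted p = 0.0427), with its MPH libraries far apart. pdk4, chosen after its values were seen, was at 18.8, 11.7 and 10.1 CPM with MPH, against 1.58 and 2.68 CPM with vehicle and just missed the threshold (log2 fold change 2.66, SE 0.40, adjusted p = 0.0552). pdk4 is also in the list of glucocorticoid-responsive genes. At an unadjusted p under 0.05 the list of pyruvate dehydrogenase and its kinases had 3 genes higher (20%, against 6.73% of all genes) and 1 lower (6.67%, against 4.97%). The log2 fold change was positive in 10 genes of that list and negative in 5, down to -1.19. pdha1a, PDHB and DLAT, subunits of the enzyme complex itself chosen after their values were seen, had log2 fold changes of 0.01 (SE 0.16), 0.21 (SE 0.24) and -0.15 (SE 0.18), with adjusted p from 0.795 to 0.985.

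The FoxO and fasting-responsive list held 3 genes that rose. CPT1B, which brings long-chain fatty acids into mitochondria, stood at 9.91, 11.7 and 8.85 CPM with MPH, against 0.835 and 0.910 CPM with vehicle, an 11.6-fold rise from a low level (log2 fold change 3.53, SE 0.35, adjusted p = 0.00936). arrdc3b and ARRDC3 encode arrestin domain proteins, relatives of TXNIP. arrdc3b had 87.3, 75.0 and 59.1 CPM with MPH, against 13.5 and 9.87 CPM with vehicle (log2 fold change 2.66, SE 0.24, adjusted p = 0.00632). ARRDC3 was at 163, 146 and 132 CPM with MPH, against 38.1 and 41.6 CPM with vehicle (log2 fold change 1.88, SE 0.18, adjusted p = 0.00632), with a narrow range in each group. Of 37 genes in the list 3 rose and 0 fell, the log2 fold change was positive in 33, the median was 0.64, and 18 (48.6%, against 6.73% of all genes) were higher and 1 lower at an unadjusted p under 0.05. cpt1ab, another carnitine palmitoyltransferase, was chosen after its values were seen and stood at 47.8, 24.3 and 30.9 CPM with MPH, against 8.09 and 9.05 CPM with vehicle (adjusted p = 0.0570). IGFBP1, an insulin-like growth factor binding protein that rises in fasting mammals, was chosen likewise and had 25.2, 19.6 and 16.6 CPM with MPH, against 7.21 and 5.78 CPM with vehicle (adjusted p = 0.0747).

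Of 37 genes of glycolysis and glucose uptake none passed the threshold (median 0.10). At an unadjusted p under 0.05, 4 (10.8%, against 6.73% of all genes) were higher and 5 (13.5%, against 4.97%) lower. DESeq2's Wald test, its likelihood ratio test and limma-voom called 3, 3 and 1. PFKFB4, which sets the level of an activator of glycolysis, was at 60.6, 59.8 and 45.9 CPM with MPH, against 26.8 and 30.1 CPM with vehicle (log2 fold change 0.96, SE 0.19, adjusted p = 0.127). HK1, the main hexokinase of the brain, stood at 221, 233 and 239 CPM with MPH, against 364 and 343 CPM with vehicle (log2 fold change -0.61, SE 0.16, adjusted p = 0.219). Neither overlapped between groups, and they lay on opposite sides of vehicle.

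The dopamine transporter, a target of MPH, and the enzymes of monoamine synthesis showed no call. SLC6A3, the dopamine transporter, had 19.3, 10.5 and 8.98 CPM with MPH, against 14.2 and 11.7 CPM with vehicle, with overlapping groups (log2 fold change -0.01, SE 0.34, adjusted p = 0.995), and its sign turned in several alternatives. TH, tyrosine hydroxylase, was at 11.4, 13.0 and 9.75 CPM with MPH, against 9.71 and 16.1 CPM with vehicle, with overlapping groups too (log2 fold change -0.18, SE 0.29, adjusted p = 0.857). DDC, which makes dopamine and serotonin from their precursors, stood at 9.16, 8.95 and 10.6 CPM with MPH, against 30.6 and 12.1 CPM with vehicle, where vehicle replicate 1 was far above the other 4 libraries (log2 fold change -1.16, SE 0.36, adjusted p = 0.290). TPH2, the serotonin-making enzyme, had 5.93, 4.15 and 8.30 CPM with MPH, against 11.8 and 10.5 CPM with vehicle (log2 fold change -0.86, SE 0.33, adjusted p = 0.368). None of 22 monoamine genes passed the threshold (median -0.14), and DESeq2 and limma-voom made 0 calls. At an unadjusted p under 0.05, 0 were higher and 3 (13.6%, against 4.97% of all genes) lower.

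None of 12 dopamine receptor genes passed either (median -0.07), with 0 calls in DESeq2 or limma-voom. At an unadjusted p under 0.05, 1 (8.33%, against 6.73% of all genes) was higher and 0 lower. drd4a was at 9.69, 11.2 and 9.92 CPM with MPH, against 5.27 and 6.37 CPM with vehicle (log2 fold change 0.82, SE 0.27, adjusted p = 0.310). The DRD1 gene ENSDARG00000038918 stood at 1.68, 3.22 and 1.92 CPM with MPH, against 3.56 and 3.82 CPM with vehicle (log2 fold change -0.70, SE 0.44, adjusted p = 0.595). The 32 PP2A subunits and regulators tested had a median of -0.03 and a range from -0.42 to 0.34, none passed, and 0 were higher and 0 lower at an unadjusted p under 0.05, with 0, 0 and 0 calls in DESeq2's Wald and likelihood ratio tests and limma-voom. The lowest p in that list was of the regulatory subunit PPP2R5D, at 24.2, 31.8 and 20.2 CPM with MPH, against 36.7 and 31.2 CPM with vehicle (log2 fold change -0.42, SE 0.23, adjusted p = 0.535). ppp2r5ca, of the same B56 family, was next at 14.2, 16.98 and 18.7 CPM with MPH, against 25.1 and 18.9 CPM with vehicle (log2 fold change -0.40, SE 0.23, adjusted p = 0.554).

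In the immediate early list, genes that neurons switch on within minutes of firing, csrnp1a alone rose. It had 22.4, 18.2 and 9.20 CPM with MPH, against 1.58 and 2.18 CPM with vehicle, an 8.77-fold rise (log2 fold change 3.13, SE 0.44, adjusted p = 0.0426), and encodes a nuclear protein. Of 31 genes 1 rose and 0 fell, with a median of 0.22. At an unadjusted p under 0.05, 8 (25.8%, against 6.73% of all genes) were higher and 3 (9.68%, against 4.97%) lower. NR4A3, an orphan nuclear receptor, was at 28.6, 29.3 and 17.1 CPM with MPH, against 11.5 and 10.1 CPM with vehicle (log2 fold change 1.204, SE 0.28, adjusted p = 0.177). egr1, a common marker of neuronal activity chosen after its values were seen, was on the other side at 272, 242 and 312 CPM with MPH, against 390.4 and 421 CPM with vehicle (log2 fold change -0.56, SE 0.18, adjusted p = 0.301).

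None of 24 hypothalamic neuropeptide genes passed (median 0.55). At an unadjusted p under 0.05, 8 (33.3%, against 6.73% of all genes) were higher and 2 (8.33%, against 4.97%) lower. DESeq2's Wald test, its likelihood ratio test and limma-voom called 4, 3 and 1. gnrh2, a gonadotropin-releasing hormone made in the midbrain, stood at 2.48, 1.19 and 1.198 CPM with MPH, against 9.45 and 7.64 CPM with vehicle (log2 fold change -2.40, SE 0.42, adjusted p = 0.0844). nmbb, a neuromedin B, had 10.4, 8.69 and 7.74 CPM with MPH, against 20.3 and 14.7 CPM with vehicle (log2 fold change -0.97, SE 0.25, adjusted p = 0.219). agrp, a peptide of hunger neurons chosen after its values were seen, was at 2.39, 1.01 and 3.89 CPM with MPH, against 0.396 and 0.318 CPM with vehicle (log2 fold change 2.75, SE 0.75, adjusted p = 0.232). Among 55 glutamate and GABA receptor genes none passed (median 0.16), with 0 calls in DESeq2 or limma-voom. At an unadjusted p under 0.05, 3 (5.45%, against 6.73% of all genes) were higher and 0 lower. GRIN1, the obligatory NMDA receptor subunit, stood at 346, 394 and 348 CPM with MPH, against 224 and 274 CPM with vehicle for ENSDARG00000025728 (log2 fold change 0.54, SE 0.18, adjusted p = 0.314), and the NMDA subunit GRIN2C had 51.6, 82.8 and 66.8 CPM with MPH, against 47.6 and 39.6 CPM with vehicle for ENSDARG00000078149 (log2 fold change 0.62, SE 0.23, adjusted p = 0.347).

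**Figure D4:**
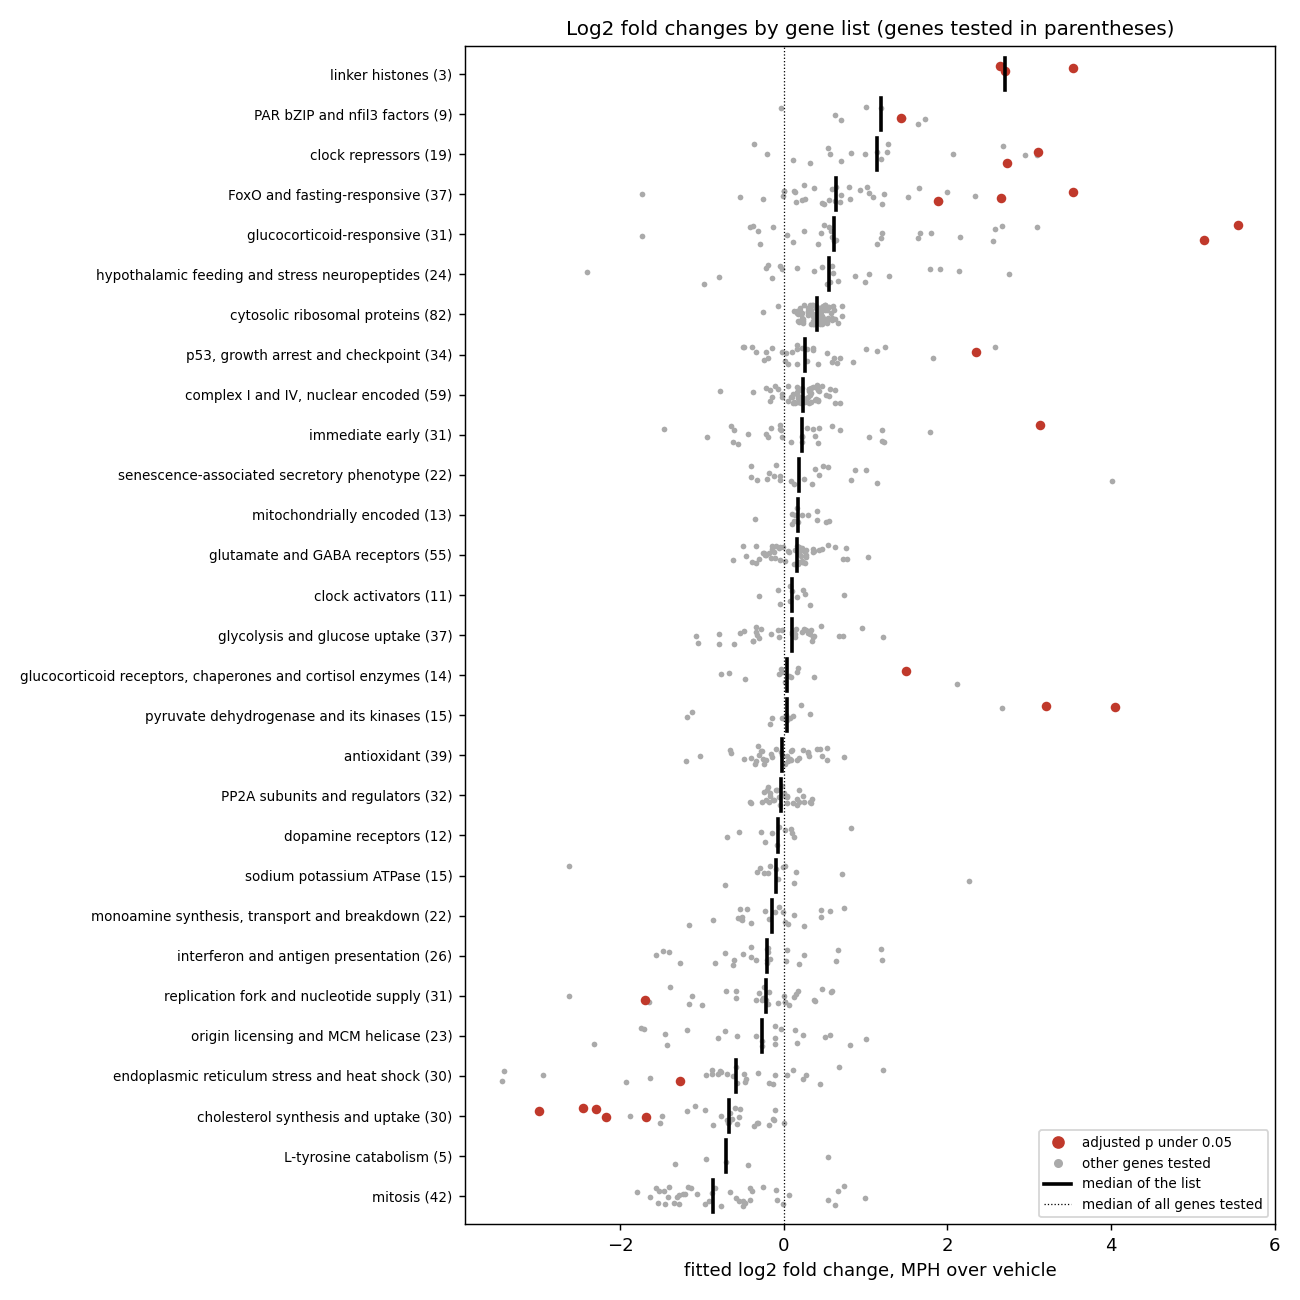
Fitted log2 fold change (MPH over vehicle) of every tested gene in 29 gene lists, ordered by the list median (black bars), with genes of adjusted p under 0.05 in red and others in gray; the dotted line is the median of all genes tested. Linker histones have a median of 2.71, clock repressors of 1.13, cholesterol genes of -0.67 and mitosis genes of -0.86, and the red points lie in 12 of the lists.

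Ribosomal protein genes were shifted by one library. Of 82 genes 80 had a positive log2 fold change and the median was 0.40, but none passed the threshold, with 0 calls in DESeq2 or limma-voom. At an unadjusted p under 0.05, 2 of these genes (2.44%, against 6.73% of all genes) were higher and 0 lower. Their sum was 65299, 34151 and 38582 CPM with MPH, against 38464 and 30618 CPM with vehicle, so that replicate 1 was well above the other 4 libraries. Without MPH replicate 1 the list median was 0.08. rps27l was at 18.6, 18.8 and 15.0 CPM with MPH, against 11.5 and 9.87 CPM with vehicle (adjusted p = 0.310) and RPL35 at 632, 439.5 and 474 CPM with MPH, against 382 and 358 CPM with vehicle (adjusted p = 0.417). The 59 nuclear genes of complexes I and IV moved with the same library, with a summed level of 11339.8, 7044 and 7360.4 CPM with MPH, against 7691 and 6394 CPM with vehicle, a median of 0.23 and no call. At an unadjusted p under 0.05, 1 of these genes (1.69%, against 6.73% of all genes) was higher and 0 lower, with 0 calls in DESeq2 or limma-voom. Their median without MPH replicate 1 was -0.01. NDUFA4 of that list stood at 415, 229 and 216 CPM with MPH, against 212 and 159 CPM with vehicle for ENSDARG00000099499 and NDUFAF2, an assembly factor, at 14.1, 18.2 and 16.9 CPM with MPH, against 10.9 and 11.4 CPM with vehicle (adjusted p = 0.467 and 0.409).

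Other lists had no gene past the threshold. Among 13 mitochondrially encoded genes (median 0.18), 1 (7.69%, against 6.73% of all genes) was higher and 0 lower at an unadjusted p under 0.05, with 0 calls in DESeq2 or limma-voom. MT-ND1 had 4536, 3884 and 3701 CPM with MPH, against 2981 and 2640.1 CPM with vehicle, and MT-CO1 was at 34426, 22951 and 22841 CPM with MPH, against 19659.6 and 16632 CPM with vehicle. Among 15 sodium potassium ATPase genes (median -0.10), 2 (13.3%, against 6.73% of all genes) were higher and 1 (6.67%, against 4.97%) lower at an unadjusted p under 0.05. DESeq2's Wald test, its likelihood ratio test and limma-voom called 2, 2 and 1. atp1b3a was at 112, 112 and 99.3 CPM with MPH, against 63.0 and 68.4 CPM with vehicle (log2 fold change 0.71, SE 0.16, adjusted p = 0.165), and atp1a1a.4 stood at 0.840, 1.06 and 0.171 CPM with MPH, against 5.71 and 2.82 CPM with vehicle (log2 fold change -2.62, SE 0.70, adjusted p = 0.225). Among 39 antioxidant genes (median -0.02), 0 were higher and 1 (2.56%, against 4.97% of all genes) lower at an unadjusted p under 0.05, with 0 calls in DESeq2 or limma-voom. GSR, glutathione reductase, had 5.04, 9.48 and 15.0 CPM with MPH, against 17.5 and 22.5 CPM with vehicle (log2 fold change -1.02, SE 0.40, adjusted p = 0.380) and SOD1 at 345, 236 and 214 CPM with MPH, against 212 and 155 CPM with vehicle (log2 fold change 0.52, SE 0.24, adjusted p = 0.455). Among 5 L-tyrosine catabolism genes (median -0.70), 0 were higher and 1 (20%, against 4.97% of all genes) lower at an unadjusted p under 0.05, with 0 calls in DESeq2 or limma-voom. HGD was at 1.55, 1.19 and 2.05 CPM with MPH, against 6.29 and 1.77 CPM with vehicle, and gstz1 at 9.64, 5.43 and 4.66 CPM with MPH, against 4.31 and 4.69 CPM with vehicle. Among 26 interferon and antigen presentation genes (median -0.21), 1 (3.85%, against 6.73% of all genes) was higher and 0 lower at an unadjusted p under 0.05, with 0 calls in DESeq2 or limma-voom.

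Of the 43 genes, 23 were matched to a gene list and 20 to none, 15 of them higher and 5 lower with MPH. HSP90AA1, among the 5, was planned for a list but not matched. timm23b, a subunit of the channel that imports proteins into mitochondria, had 80, 88 and 185 counts with MPH and 2 and 3 counts with vehicle. Summed counts over scaled library sizes gave a ratio of 46.0 (95% exact conditional interval 19.5 to 143, counting error only), and timm23b had an adjusted p of 0.0250. At so few vehicle counts its fitted fold change depends on the prior count and is not given. ovch1, a secreted protease, stood at 24.2, 21.6 and 8.04 CPM with MPH, against 0.483 and 0.728 CPM with vehicle (log2 fold change 4.87, SE 0.58, adjusted p = 0.0170). si:dkey-201c13.2, had 25.8, 33.1 and 10.5 CPM with MPH, against 0.483 and 1.27 CPM with vehicle (log2 fold change 4.71, SE 0.63, adjusted p = 0.0318). In ovch1 and si:dkey-201c13.2, as in many genes above, MPH replicate 3 was the lowest of its group.

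SLC43A2, a transporter of large neutral amino acids, was at 179, 169 and 71.1 CPM with MPH, against 10.1 and 11.5 CPM with vehicle, a 12.9-fold rise (log2 fold change 3.69, SE 0.41, adjusted p = 0.0149). CU929133.1 stood at 10.4, 21.3 and 17.3 CPM with MPH, against 1.41 and 1.05 CPM with vehicle (log2 fold change 3.73, SE 0.42, adjusted p = 0.0149). The following 5 genes passed the threshold and were chosen for description after their values were seen. OGA, the enzyme that removes O-GlcNAc from proteins, had 305, 324 and 209 CPM with MPH, against 63.5 and 71.8 CPM with vehicle (log2 fold change 2.04, SE 0.23, adjusted p = 0.0156). EFNA1, an ephrin ligand, was at 78.4, 76.2 and 53.6 CPM with MPH, against 19.9 and 17.3 CPM with vehicle (log2 fold change 1.90, SE 0.22, adjusted p = 0.0168). slc16a9b, of the monocarboxylate transporter family, stood at 55.5, 51.1 and 40.9 CPM with MPH, against 8.18 and 6.51 CPM with vehicle (log2 fold change 2.74, SE 0.23, adjusted p = 0.00403). pik3r3a, a regulatory subunit of PI3 kinase, had 47.3, 39.3 and 28.6 CPM with MPH, against 10.6 and 10.6 CPM with vehicle (log2 fold change 1.85, SE 0.25, adjusted p = 0.0354). CTDSP2, a phosphatase, had the smallest fold change of the genes that rose, at 106, 110.0 and 109 CPM with MPH, against 49.8 and 53.4 CPM with vehicle (log2 fold change 1.07, SE 0.16, adjusted p = 0.0489). By the ratio of highest to lowest, its MPH values lay closer together than those of any other of the 43. The remaining 4 that rose outside the lists, mmadhca, znf395a, zgc:113263 and ENSDARG00000099719, had log2 fold changes of 1.86, 1.92, 2.78 and 2.82.

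Among the 5 that fell outside the lists, besides HSP90AA1 and dnaja, cyb5b, a cytochrome b5 of the outer mitochondrial membrane, was at 10.0, 10.5 and 12.6 CPM with MPH, against 36.3 and 35.3 CPM with vehicle, 3.23-fold lower (log2 fold change -1.69, SE 0.20, adjusted p = 0.0168). ENSDARG00000010729, which has no symbol in the tables used, stood at 8.49, 4.68 and 7.66 CPM with MPH, against 32.4 and 52.7 CPM with vehicle (log2 fold change -2.62, SE 0.31, adjusted p = 0.0168). lama1, the laminin alpha 1 chain of basement membranes, had 19.2, 19.5 and 17.4 CPM with MPH, against 44.6 and 48.3 CPM with vehicle (log2 fold change -1.32, SE 0.17, adjusted p = 0.0312). The library kit does not mark strand, so reads of overlapping or antisense genes cannot be told apart, and reads of near-identical copies may be split between the gene pairs named above.

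Markers of cell types were read in the same libraries. No marker passed the threshold, and fewer cells of a type and less RNA per cell cannot be told apart in whole brains. The 17 neuron markers summed to 7963, 8420.1 and 8789 CPM with MPH, against 8632 and 8970.2 CPM with vehicle (median log2 fold change -0.02), with 0 higher and 0 lower at an unadjusted p under 0.05, and 0 calls in DESeq2 or limma-voom. Radial glia and neural stem cell markers had a median of -0.16 over 16 genes. At an unadjusted p under 0.05, 0 were higher and 4 (25%, against 4.97% of all genes) lower. DESeq2's Wald test, its likelihood ratio test and limma-voom called 2, 2 and 2. All 12 oligodendrocyte and myelin markers had a negative log2 fold change (median -0.39). At an unadjusted p under 0.05, 0 were higher and 5 (41.7%, against 4.97% of all genes) lower. DESeq2's Wald test, its likelihood ratio test and limma-voom called 3, 3 and 0. plp1b, a proteolipid gene of myelin, was at 1019, 964 and 880.4 CPM with MPH, against 1981 and 1426 CPM with vehicle (adjusted p = 0.187). The transcription factors of the same cells, SOX10 and OLIG2, had log2 fold changes of -0.16 and -0.13.

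Red blood cell markers moved with the libraries. Their sum was 105, 81.9 and 337 CPM with MPH, against 338 and 352 CPM with vehicle, so MPH replicate 3 was at the vehicle level and replicates 1 and 2 were lower (5 genes tested, median -1.05). At an unadjusted p under 0.05, 0 were higher and 1 (20%, against 4.97% of all genes) lower. DESeq2's Wald test, its likelihood ratio test and limma-voom called 0, 0 and 2. No defining globin was at 0, and hbaa1 had at least 52.1 CPM in every library. Pituitary markers summed to 6.55, 65.7 and 3.81 CPM with MPH, against 8.31 and 6.05 CPM with vehicle, high in MPH replicate 2 alone (6 tested, median 2.12). At an unadjusted p under 0.05, 1 pituitary marker (16.7%, against 6.73% of all genes) was higher and 0 lower, with 0 calls in DESeq2 or limma-voom. Skeletal muscle markers summed to 44.7, 33.0 and 34.6 CPM with MPH, against 23.3 and 14.5 CPM with vehicle (10 tested, median 0.94). At an unadjusted p under 0.05, 4 of the muscle markers (40%, against 6.73% of all genes) were higher and 0 lower. DESeq2's Wald test, its likelihood ratio test and limma-voom called 2, 2 and 2. Medians in the other lists were -0.56 for microglia and macrophages, -0.03 for vascular endothelium, -0.28 for meninges and fibroblasts, -0.44 for retina and lens and -0.59 for pineal. At an unadjusted p under 0.05, 2 of 9 meninges and fibroblast markers (22.2%) and 1 of 5 pineal markers (20%) were lower, against 4.97% of all genes. Of 7 retina and lens markers 1 (14.3%, against 6.73% of all genes) was higher. These 5 lists held no other gene at that level. The part of blood, pituitary and muscle transcripts in the results above was not tested, and none of the 43 genes was in a marker list.

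MPH was also set directly against valproate, an anticonvulsant that inhibits histone deacetylases, in the same mutant. Both drug groups would share the same 2 vehicle libraries, so valproate was not tested against vehicle here. The values of the groups are given side by side, and the test compared the drugs with each other alone. Of 19387 genes tested between MPH and valproate, 0 passed the threshold in edgeR (0%), and the lowest adjusted p was 0.340. At an unadjusted p under 0.05 there were 787 (4.06%), 437 higher (2.25%) and 350 lower (1.81%) with MPH. DESeq2 called 40 genes in its Wald test and 31 in its likelihood ratio test, and limma-voom called 0. Of the 43 genes, 12 had an unadjusted p under 0.05. In 11 the 3 MPH and 3 valproate libraries did not overlap, against 9.15% of all genes tested between the drugs. The 43 were chosen through these same MPH values, so an excess over that share does not show that the drugs differ.

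timm23b had the lowest p of the 43 in this test, with 3.54, 3.88 and 7.91 CPM with MPH, against 0.631, 0.592 and 0.277 CPM with valproate (log2 fold change 3.35, SE 0.51, adjusted p = 0.732). CPT1B stood at 9.91, 11.7 and 8.85 CPM with MPH, against 2.72, 6.61 and 4.71 CPM with valproate (log2 fold change 1.13, SE 0.34, adjusted p = 0.997), and the groups did not overlap. HSD11B2 likewise had 45.2, 46.0 and 34.6 CPM with MPH, against 31.4, 18.4 and 17.1 CPM with valproate (log2 fold change 0.92, SE 0.25, adjusted p = 0.997). The 3 linker histones had a median log2 difference of 0.87, and their sum was 1309, 1198 and 797 CPM with MPH, against 764, 754 and 374 CPM with valproate. FKBP5 was at 663, 608 and 316 CPM with MPH, against 634, 59.7 and 88.1 CPM with valproate (log2 fold change 1.02, SE 0.78, adjusted p = 0.997). In FKBP5 the first valproate library lay within the MPH range and the other two lay below it. NR1D1 stood at 66.0, 70.4 and 50.1 CPM with MPH, against 53.3, 76.5 and 76.5 CPM with valproate (log2 fold change -0.14, SE 0.19, adjusted p = 0.997). The values of timm23b, CPT1B and HSD11B2 were chosen after they were seen, and none of these differences passed the threshold.

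**Figure D5:**
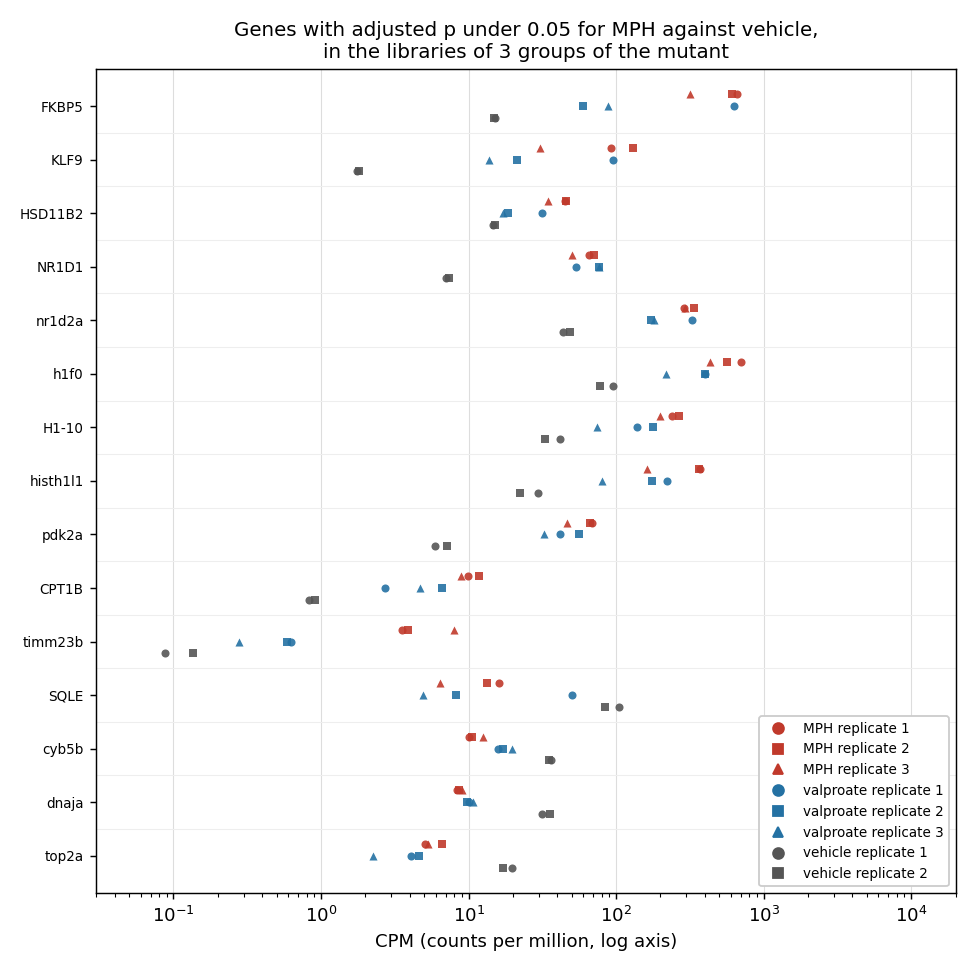
CPM (log axis) of 15 of the 43 genes in the 3 MPH libraries (red), the 3 valproate libraries (blue) and the 2 vehicle libraries (gray) of the mutant. For FKBP5 valproate replicate 1 (634 CPM) lies among the MPH libraries while the others stand at 59.7 and 88.1 CPM, and for timm23b all valproate libraries (0.277 to 0.631 CPM) lie under all MPH libraries (3.54 to 7.91 CPM).

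Between the drugs, several gene lists held genes with an unadjusted p under 0.05. Not all of them are named here, and 2 are described further. In dividing-cell lists, 2 of 21 origin licensing, 2 of 31 replication fork and 3 of 40 mitosis genes were higher with MPH. In the same lists 0 were lower, and of all genes 2.25% were higher and 1.81% lower. Of 11 clock activators 3 were lower with MPH than with valproate (against 1.81% of all genes) and 0 higher. Higher with MPH were 2 of 3 linker histones, 4 of 37 FoxO and fasting-responsive genes and 4 of 39 antioxidant genes (against 2.25% of all genes). Lower in these 3 lists were 0, 1 and 0. The linker histones counted as higher, H1-10 and h1f0, had passed the threshold against vehicle through these same MPH values. So had CPT1B and arrdc3b of the FoxO and fasting-responsive genes. For the linker histones and the FoxO and fasting-responsive genes, an excess over 2.25% therefore does not show that the drugs differ. Of 29 interferon and antigen presentation genes, 14 were lower and 0 higher with MPH than with valproate, against 1.81% and 2.25% of all genes in this test (median log2 difference -0.84). isg15, an interferon-induced ubiquitin-like protein, had 7.17, 2.38 and 2.99 CPM with MPH, against 46.5, 80.0 and 5.77 CPM with valproate (log2 fold change -3.39, SE 0.83, adjusted p = 0.997), and its vehicle values were 1.58 and 2.05 CPM. stat2, a transducer of the interferon signal, was at 25.4, 20.2 and 18.1 CPM with MPH, against 85.6, 144 and 34.9 CPM with valproate (log2 fold change -2.05, SE 0.43, adjusted p = 0.997), and its vehicle values were 13.2 and 13.6 CPM. The highest values lay in valproate replicates 1 and 2. Of 81 ribosomal protein genes 72 were higher with MPH (against 2.25% of all genes). The number was 30 without MPH replicate 1, 31 without valproate replicate 2 and 6 without valproate replicate 3. At these settings the share of all genes was 0.883%, 1.46% and 0.658%.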

How the data were processed

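Brains of adult zebrafish were pooled 2 per library. Libraries were made with a NEBNext Ultra RNA kit and sequenced on an Illumina HiSeq instrument; reads were filtered, trimmed to 100 bases and aligned by the authors with STAR 2.6.1d to the zv10 assembly. The deposited values are the authors' raw counts of reads per gene, without normalization, for 32266 genes, of which 27111 had a count. The authors tested them with DESeq2. Symbols came from the study's tables (455) and an Ensembl ID table (26030), and 5781 genes had none.

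From these counts, genes were kept by filterByExpr (10 counts, 15 in total), scaled by TMM and tested with edgeR 4.0.16 (quasi-likelihood test, R 4.3.3) in the 5 libraries, with Benjamini-Hochberg adjustment over all genes tested and a threshold of 0.05. MPH was tested against valproate in the same way in 6 libraries. The SE of a log2 fold change was calculated back from the test, as its absolute value over the square root of the F statistic. CPM are counts over TMM-scaled library sizes. The wild-type libraries entered only the CPM scaling and the fit of all 10 libraries. Alternatives used DESeq2 1.42.0 (Wald and likelihood ratio tests), limma 3.58.1 (voom with quality weights), DESeq2 size factors, library size alone, no filter, 10 counts in every library, all 10 libraries, a replicate block and each library left out. The fits were tested on simulated data. Named genes were the 10 highest and 10 lowest log2 fold changes among genes past the threshold whose groups did not overlap and whose CPM averaged 1 or more, all list members past the threshold, the 2 members of each list with the lowest p, and the targeted gene, SLC6A3 and TH; all other genes named were chosen after their values were seen. Members and lists were chosen with earlier results of these data known. Some genes stand in more than one list, so the medians and shares of those lists are not independent. The glucocorticoid-responsive list shares per1 genes with the clock repressors, pdk4 with the pyruvate dehydrogenase list, FoxO genes with the fasting list and cdkn1a with the p53 list. At 21031600 counts or more per library, intervals on counts cover counting error only. Some genes are not reported here, and counts over lists include them.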

Additional observations from a re-analysis of the deposited data

How the results depend on the processing

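The 43 calls of MPH against vehicle (31 higher, 12 lower) became 540 (351 and 189) in DESeq2's Wald test, 503 (313 and 190) in its likelihood ratio test, 430 (274 and 156) in limma-voom, 219 (144 and 75) without a filter and 143 (92 and 51) in a fit of all 10 libraries. Library size alone gave 53, of which 19 were lower, 10 counts in every library gave 55 and DESeq2 size factors gave 40. Leaving out each library in turn gave 1 to 731 calls, 0 to 439 higher and 1 to 292 lower. For MPH against valproate, DESeq2 called 40 genes in the Wald test (6 and 34) and 31 in the likelihood ratio test (6 and 25), and the fit without a filter called 1 gene, lower with MPH. Leaving out each library gave 0 to 1 calls, 0 higher and 0 to 1 lower. The cause of these differences was not tested.

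The replicate numbers were not taken to pair the samples, since the series text does not say how fish were assigned to them. Deviations of same-numbered libraries from their group means correlated at 0.114 and 0.0547 for MPH and vehicle and at 0.253, -0.268 and 0.219 for MPH and valproate. Both vehicle replicates correlated best with the MPH library of the same number, and of the valproate replicates only replicate 3 did. The deviations of the 2 vehicle libraries mirror each other, so these correlations cannot decide whether the samples were paired. With the replicate block the calls numbered 2689 (1514 higher and 1175 lower) against vehicle and 2, both lower, against valproate. In the block fit against vehicle, MPH replicate 3 had no vehicle library of its number. It was therefore fitted exactly and did not enter the estimate of the difference. Without each library in turn the log2 fold change of PPP2R2C lay between -0.075 (without MPH replicate 2) and 0.36, that of TH between -0.51 and 0.22 (without vehicle replicate 2), and that of SLC6A3 between -0.40 and 0.19 (without MPH replicate 3), with 0.12 without MPH replicate 2 and 0.13 without vehicle replicate 1. SLC6A3 also turned to 0.0023 under DESeq2's Wald and likelihood ratio tests and its size factors and to 0.14 with the replicate block. None of the 32 named genes past the threshold turned.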
